A study of Sus scrofa with 3 samples.

Results

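BGN, DCN, LUM, ACAN and HAPLN1 encode 4 proteoglycans and the link protein that joins proteoglycans to hyaluronan, and these 5 genes were followed through 3 stages of tooth germ development in the miniature pig. They were found by their gene symbol in the platform's probe table and are read by 8 of 23999 analysed probe sets, which name 6765 genes in all. BGN, DCN and LUM form the small leucine-rich group and ACAN and HAPLN1 the cartilage-type group. HAPLN1, the link protein gene, was 7.89-fold higher at E50 than at E40, while ACAN, which encodes the cartilage proteoglycan aggrecan, was 2.02-fold lower on dim signals. DCN and LUM stayed within 2-fold throughout, and BGN was 2.75-fold higher at E60 than at E50.

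Proteoglycans are core proteins that carry sulphated sugar chains, called glycosaminoglycans, into the extracellular matrix. Decorin, biglycan and lumican, the products of DCN, BGN and LUM, have a small core of leucine-rich repeats that binds collagen fibrils and influences how they assemble, and biglycan and decorin are also found in predentin and bone. Aggrecan is the large proteoglycan that binds hyaluronan in cartilage, and link protein stabilises this binding. Link protein also holds other hyaluronan-binding proteoglycans such as versican, so it is not restricted to cartilage.

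The samples were last deciduous molar germs with the dental lamina from mandibles of Wuzhishan miniature pigs, a diphyodont animal that forms a deciduous and a permanent dentition. The E40 germs were in the cap stage and had no secondary dental lamina, the E50 germs were in the bell stage with this lamina beginning, and the E60 germs are labelled as secretory stage with the lamina present, although the methods of the study call them late bell. No treatment was compared, and germs of 1 litter were pooled for 1 Affymetrix Porcine Genome Array on each day. Each stage thus has 1 measurement without replicate error, no p-value is given, and a difference describes these pools.

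The values are MAS 5.0 signals, which the authors scaled between arrays and deposited as log2. Signals below the 25th percentile of an array were raised to this floor, which was 29.3 at E40, 17.2 at E50 and 21.8 at E60. Where 1 of 2 signals was raised, the fold is a lower bound and is given as "at least", and where both were below the floor it was left out. A fold was also left out where 1 signal was raised to a floor higher than the measured signal on the other day, which happened for 124 of 6765 genes at E50 versus E40, 59 at E60 versus E50 and 74 at E60 versus E40. Among the genes of the lists below these were CD14, ENAM and ITIH2 at E50 versus E40, TNNI1 at E60 versus E50, and HYAL1 and ITIH2 at E60 versus E40. A gene was called higher or lower when its brightest probe set differed by over 2-fold. As a gauge of precision, the log2 folds of the 2 brightest probe sets of the same gene differed with an SD of 0.69 at E50 versus E40 (1594 genes), 0.56 at E60 versus E50 (1622 genes) and 0.63 at E60 versus E40 (1590 genes). Where both probe sets were brighter than the median, the SD was 0.57, 0.46 and 0.55 (923 genes each). Both probe sets were read on the same arrays, so these SDs hold no variation between litters, dissections or hybridisations. The median of all probe sets stood at -0.15 (log2) at E50 versus E40, 0.04 at E60 versus E50 and -0.11 at E60 versus E40.

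The enamel gene AMBN had a signal of 59.8 at E40, 2675 at E50 and 29942 at E60, and the dentin gene DSPP had 3.60, 80.3 and 4195 on the same days. The signals of markers of skeletal muscle and of keratinised epithelium also differed between the pools. All 14 skeletal muscle markers with a probe set were lower at E50 than at E40 (median log2 fold -5.92), and their summed signal was 43092 at E40, 1023 at E50 and 3767 at E60. Of the last 2 sums, 481 and 3266 were from MYL1, a myosin light chain gene, and the median log2 fold of the list at E60 versus E50 was -0.02. The summed signal of 6 markers of keratinised epithelium was 15059, 3729 and 4199 in the same order. Of these sums, KRT10 gave 1321, 1714 and 2276, and FABP5 gave 4372, 1839 and 1806, while SPRP read 4321, 45.3 and 51.7, and the median log2 fold of the list at E50 versus E40 was -4.03. In such bulk RNA, fewer cells of a type and less RNA per cell cannot be told apart.

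HAPLN1 was measured by 2 probe sets, both above the floor on every array. The brighter one had a signal of 416 at E40, 3281 at E50 and 5119 at E60. The other had 154, 746 and 1272 on the same days. Both were therefore dimmest at E40 and brightest at E60, with the larger step between E40 and E50.

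At E50 versus E40 the brighter HAPLN1 probe set was 7.89-fold higher (log2 fold 2.98) and the dimmer one 4.85-fold higher (2.28). This gap of 0.70 was larger than the SD of 0.57 between bright probe sets of a gene. Among 18379 probe sets with a fold in this comparison the 2 HAPLN1 probe sets ranked 15th and 48th from the top. At E60 versus E50 they were 1.56-fold and 1.70-fold higher, which is within the 2-fold limit. At E60 versus E40 the brighter was 12.3-fold higher and the dimmer 8.26-fold higher.

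ACAN rested on dim signals. Its brighter probe set had 89.6 at E40, 44.4 at E50 and 25.3 at E60, the last of which was close to the floor of 21.8. The order of the days was thus opposite to that of HAPLN1. ACAN was 2.02-fold lower at E50 than at E40 (log2 fold -1.01), just past the limit, and 1.76-fold lower at E60 than at E50. At E60 versus E40 it was 3.54-fold lower (-1.83). Its second probe set had 5.19, 1.80 and 14.9, under the floor on every array, so the direction of ACAN has no second measurement. Quantile normalization reduced the E50 versus E40 log2 fold to -0.43, and with arrays at equal medians it was -0.62, so this call depended on the scaling, while the call at E60 versus E40 held under equal medians (-1.52), quantile normalization (-1.48) and housekeeping scaling (-1.79).

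**Figure D1:**
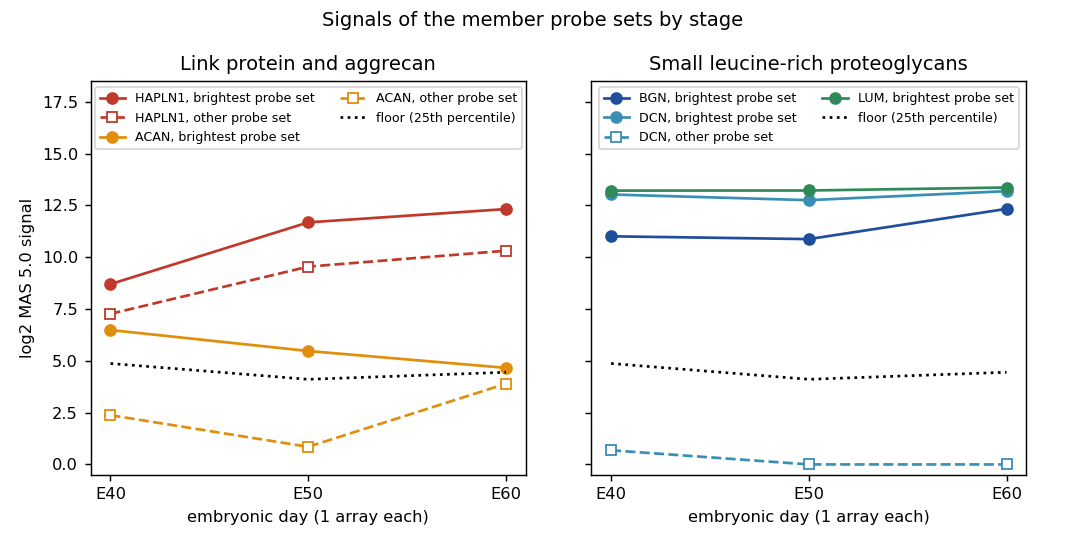
Log2 MAS 5.0 signals (vertical axis) of the 8 probe sets by embryonic day (horizontal axis, 1 array a day), with HAPLN1 and ACAN on the left and BGN, DCN and LUM on the right. Filled circles are the brightest probe set of a gene, open squares its other probe set and the dotted line the 25th percentile of each array. Both HAPLN1 lines climb, the measured ACAN line descends to 4.66 at E60, and the second probe sets of ACAN and DCN lie under the dotted line on all 3 arrays.

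LUM had nearly the same signal on every array. Its single probe set read 9491 at E40, 9528 at E50 and 10525 at E60. These values span 1.11-fold, and the log2 fold was 0.01 at E50 versus E40, 0.14 at E60 versus E50 and 0.15 at E60 versus E40, each smaller than the SD between probe sets of a gene.

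DCN was bright on 1 of its 2 probe sets. The bright one read 8339 at E40, 6894 at E50 and 9319 at E60, so that E50 was the lowest day. DCN was 1.21-fold lower at E50 than at E40 and 1.35-fold higher at E60 than at E50, both under the SD between bright probe sets of a gene. The second probe set was under the floor on all 3 arrays, at 1.61 at E40 and at the lower limit of the table at E50 and E60, and gave no fold.

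BGN had 1 probe set, with signals of 2058 at E40, 1875 at E50 and 5153 at E60. E40 and E50 were alike and E60 was high. The gene was 1.10-fold lower at E50 than at E40, 2.75-fold higher at E60 than at E50 (log2 fold 1.46) and 2.50-fold higher at E60 than at E40 (1.32). Of 18593 probe sets with a fold at E60 versus E50, 2.21% had a larger one. In these pools BGN thus parted from its group at the second step. There its log2 fold exceeded that of LUM by 1.31 and that of DCN by 1.02. The SD between bright probe sets of the same gene, read on the same arrays, was 0.46. At the first step the 3 genes lay within 0.28 of each other.

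Over the 5 genes, 1 was higher (HAPLN1) and 1 lower (ACAN) by over 2-fold at E50 versus E40, where 2.79% of 6068 genes were higher and 8.14% lower. At E60 versus E50, 1 was higher (BGN) and none was lower, where 4.41% of 6119 genes were higher and 1.76% lower. At E60 versus E40, 2 were higher (HAPLN1 and BGN) and 1 was lower (ACAN), where 4.49% of 6123 genes were higher and 7.3% lower. These comparisons share arrays, so the third holds no information beyond the other two.

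The cartilage-type group held opposite changes. The median log2 fold of the cartilage-type genes minus that of the small leucine-rich genes was 1.12 at E50 versus E40, -0.52 at E60 versus E50 and 0.74 at E60 versus E40. Each median over ACAN and HAPLN1 averages opposite changes, because the log2 fold of HAPLN1 exceeded that of ACAN by 3.99, 1.46 and 5.45 in these comparisons. HAPLN1 alone stood 3.11, 0.21 and 3.46 above the small leucine-rich median, and ACAN alone -0.88, -1.25 and -1.99 from it. Differences of this kind between genes do not change when an array is multiplied by a constant.

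**Figure D2:**
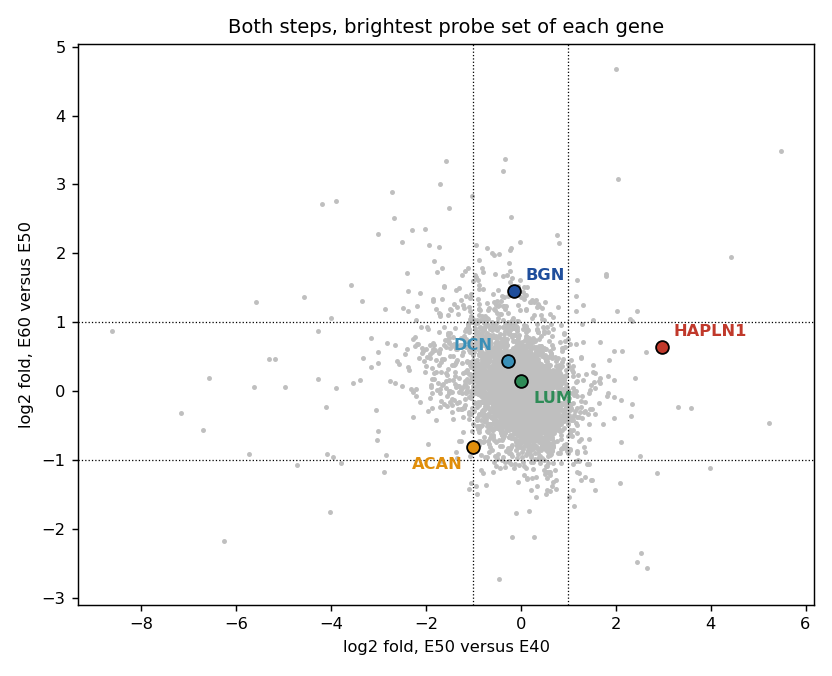
Log2 folds at E50 versus E40 (horizontal axis) and at E60 versus E50 (vertical axis) of the brightest probe set of each gene with signals above the floor on the arrays compared, with the 5 genes coloured and named and other genes in grey. Dotted lines mark 2-fold. HAPLN1 stands apart on the right at 2.98, BGN lies above the upper line at 1.46, ACAN lies just past the left line at -1.01, and DCN and LUM lie inside the central cloud.

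How common each course was among other genes was measured as the distance between the log2 folds of the 2 steps, over 5742 other genes above the floor on all 3 arrays. The course of LUM was shared within 0.5 by 2735 genes (47.6%), that of DCN by 1202 (20.9%), that of ACAN by 63 (1.10%), that of BGN by 57 (0.993%) and that of HAPLN1 by 1. This gene was MRAP2, which encodes an accessory protein of melanocortin receptors, with signals of 45.6 at E40, 286 at E50 and 426 at E60. The next nearest to HAPLN1 were DPT, the gene of dermatopontin, an extracellular matrix protein that binds decorin, with 798, 4205 and 4818, and SATB1, a chromatin organiser, with 393, 1983 and 4020. Their distances from HAPLN1 were 0.34, 0.73 and 0.75. The 2 HAPLN1 probe sets differed from each other by 0.70 at the first step alone, more than the 0.5 used here. Large folds have few neighbours within a fixed distance, so these counts largely follow the size of the folds.

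Nearest to BGN were FAM46A (710, 675 and 1811), SMPDL3A (96.5, 93.2 and 269) and ATP2B1, which encodes a calcium pump of the plasma membrane (1121, 962 and 2876). Nearest to ACAN were ANKRD50 (184, 99.3 and 57.7), PTGS1, a cyclooxygenase (404, 191 and 99.5), and PHKA2, a subunit of phosphorylase kinase (472, 254 and 155). For DCN the nearest were GJB5, OSTF1 and PCMTD1, at distances of 0.01, 0.02 and 0.03, and for LUM they were RPLP1, MSN and BMPR1A, at 0.01, 0.02 and 0.02. These matches rest on 3 arrays, and for the flat genes many others lie as near.

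In the RefSeq pig annotation LUM follows DCN directly, with KERA and EPYC next to it, HAPLN1 lies beside VCAN, and ACAN lies beside HAPLN3. KERA, EPYC and HAPLN3 carry no symbol in the probe table and have no value here. VCAN encodes versican, a large hyaluronan-binding proteoglycan of soft tissue, and was the only one of 6 listed hyaluronan-binding proteoglycans and link proteins with a symbol. Its brightest probe set read 7187 at E40, 6445 at E50 and 8255 at E60, and 2 further probe sets above the floor read 2047, 1919 and 3167, and 298, 341 and 455. None of these 3 differed by over 2-fold between any 2 days, so the neighbours HAPLN1 and VCAN had unlike courses. The other 2 VCAN probe sets were under the floor on all arrays.

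Of 3 other small leucine-rich proteoglycans with a fold, 2 were lower at the first step and 1 stayed within 2-fold as DCN and LUM did. Of 14 listed genes 4 had a symbol and 3 a fold. ASPN, which encodes asporin, a relative of decorin and biglycan, read 3671 at E40, 697 at E50 and 1063 at E60, so it was 5.27-fold lower at E50 than at E40. PRELP, whose product binds collagen and heparan sulphate, read 134, 18.4 and 41.9 and was 7.29-fold lower at E50 than at E40. At E60 it was 2.28-fold higher than at E50, where it was near the floor of 17.2, and this call was lost with a floor common to the arrays, with a floor at the 50th percentile and after quantile normalization. TSKU, the gene of tsukushi, read 1208, 1405 and 1322, within 2-fold. Thus 2 of 3 were lower at E50 versus E40 (median log2 fold -2.40), beside 8.14% of all genes. At E60 versus E50, 1 of 3 was higher (0.61), beside 4.41%, and at E60 versus E40, 2 of 3 were lower (-1.68), beside 7.3%. The medians over all genes were 0.06, -0.04 and 0.00. With a floor at the 50th percentile PRELP was under it on every array and had no fold. Then 1 gene, ASPN, was lower at E50 versus E40 (list median -1.09) and at E60 versus E40 (-0.83). The muscle markers moved the same way as ASPN and PRELP at E50 versus E40, and their part in these values was not tested.

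Hyaluronan is the chain to which link protein and aggrecan bind. HAS3, a hyaluronan synthase, read 1514 at E40, 5923 at E50 and 4537 at E60, so it was 3.91-fold higher at E50 than at E40 and 3.00-fold higher at E60 than at E40. HYAL2, a hyaluronidase, read 629, 693 and 575, within 2-fold. TMEM2, known in mice as a cell surface hyaluronidase, read 483, 263 and 600 and was 2.29-fold higher at E60 than at E50. HMMR, a hyaluronan receptor that also serves in mitosis, read 125, 86.1 and 61.7 and was 2.03-fold lower at E60 than at E40, just past the limit and within it under equal medians, quantile normalization and housekeeping scaling. Of 21 listed genes of hyaluronan synthesis, breakdown and binding 14 had a symbol. At E50 versus E40, 2 of 8 with a fold were higher (HAS3 and AMBP) and 1 lower (ITIH4), with a median log2 fold of 0.10. Over all genes 2.79% were higher and 8.14% lower. At E60 versus E50, 2 of 10 were higher (0.41), beside 4.41% of all genes. At E60 versus E40, 2 of 8 were higher and 1 lower (0.35), beside 4.49% and 7.3%. With a floor at the 50th percentile 1 gene was higher in each pair of stages and none was lower. HAS1, HAS2 and CD44 had no symbol in the table and were not analysed here.

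On their brightest probe sets the enzymes that build and sulphate the chains stayed within 2-fold with 1 exception, a count near the share over all genes. Of 37 listed genes 12 had a symbol, and none of the 12 differed by over 2-fold at E50 versus E40 (median log2 fold 0.19), where 2.79% of all genes were higher and 8.14% lower. At E60 versus E50 the median was -0.07 and at E60 versus E40 it was 0.03, with 1 gene higher in each, beside 4.41% and 4.49% of all genes. The higher gene was PAPSS2, an enzyme that makes the sulphate donor. It read 904 at E40, 696 at E50 and 2227 at E60 and was 3.20-fold higher at E60 than at E50. Its relative PAPSS1 read 3047, 4054 and 3123. CHSY1, a chondroitin synthase, read 2329, 2515 and 2853, and CHST14, which sulphates dermatan chains such as those of decorin and biglycan, read 1672, 2237 and 1895. EXT1, which extends heparan sulphate chains, read 3224, 3872 and 2775. A dim second probe set of DSE, another listed gene, read 59.8, 45.1 and 20.9. It was at least 2.07-fold lower at E60 than at E50 and at least 2.74-fold lower at E60 than at E40, while the brightest DSE probe set was within 2-fold.

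Among proteases and their inhibitor, 4 of 9 listed genes had a symbol and 3 a fold. BMP1, which removes the propeptide of biglycan, read 850 at E40, 327 at E50 and 379 at E60 on its brightest probe set, and was 2.60-fold lower at E50 than at E40. A second BMP1 probe set read 294, 228 and 380, within 2-fold, so the probe sets did not give the same call, and with equal medians the brightest was also within the limit. ADAMTS1, a protease that cleaves versican and aggrecan, read 671, 480 and 781, and TIMP3, an inhibitor of such proteases, read 144, 101 and 79.2. The list had 1 lower gene at E50 versus E40 (median log2 fold -0.52), beside 8.14% of all genes. It had none called at E60 versus E50 (0.22) and 1 lower at E60 versus E40 (-0.86), beside 7.3% of all genes.

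**Figure D3:**
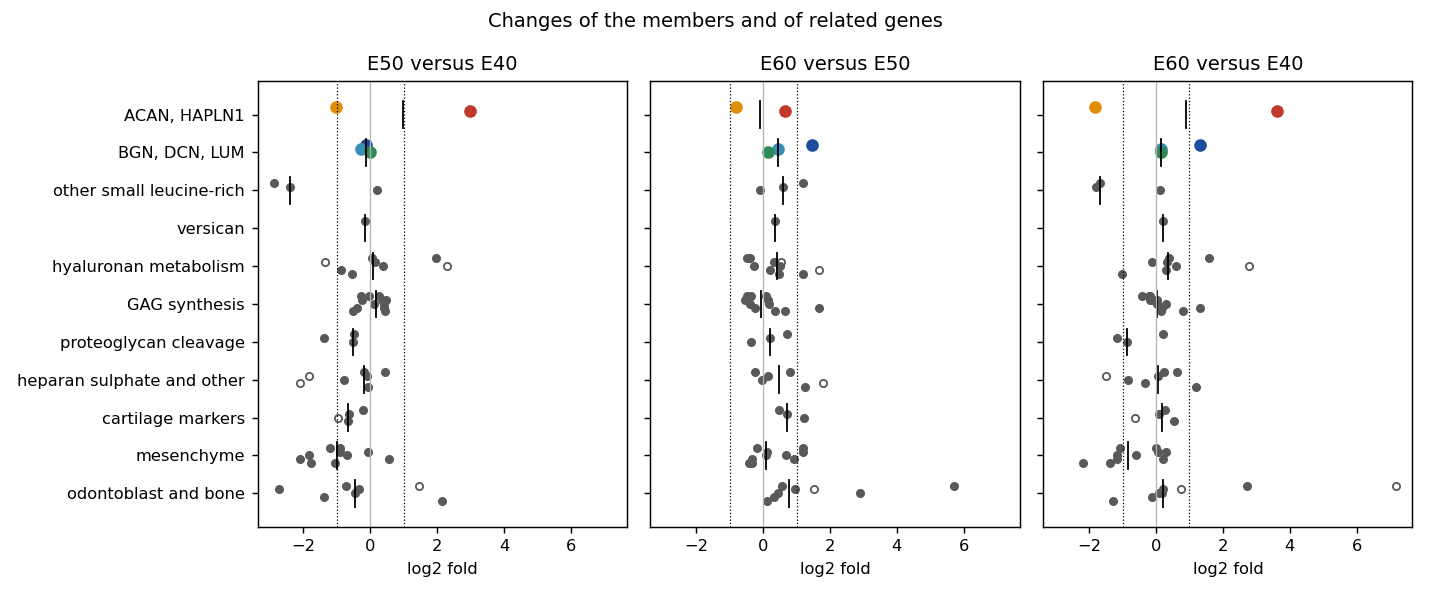
Log2 folds (horizontal axes) of the 5 genes, coloured as in the map of both steps, and of genes of related lists in grey, 1 point per gene, for each pair of stages. Open points are lower bounds, short vertical lines are list medians and dotted lines mark 2-fold. HAPLN1 and ACAN lie on opposite sides of 0 in every panel, and the genes of chain synthesis lie within 2-fold at E50 versus E40.

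The cartilage markers were dim or below the floor on all 3 arrays. Of 20 listed markers 7 had a symbol, and their summed signal was 223 at E40, 123 at E50 and 200 at E60, with 3, 4 and 4 of them under the floor. COL2A1, the main collagen of cartilage, read 76.4 at E40, 48.8 at E50 and 80.6 at E60, and SOX9, the transcription factor of chondrocytes, read 40.04, 34.6 and 47.8. COMP, a cartilage matrix protein, read 30.3, 19.0 and 43.9 on the probe set with the highest mean. Its second probe set read 69.4, 15.5 and 4.70, at least 4.03-fold lower at E50 than at E40 and at least 3.18-fold lower at E60 than at E40, so the 2 probe sets did not give the same calls. None of 4 markers with a fold was called at E50 versus E40 (median log2 fold -0.66) or at E60 versus E40 (0.17). At E60 versus E50, 1 of 3, COMP, was higher (0.73), beside 4.41% of all genes. This call was lost with a common floor, with a floor at the 50th percentile and after quantile normalization. The log2 fold of HAPLN1 at E50 versus E40 was 2.98, while those of COL2A1 and SOX9 were -0.65 and -0.21. COL2A1 and ACAN stood at -0.65 and -1.01 at E50 versus E40 and at 0.73 and -0.81 at E60 versus E50, on dim signals, and of these folds only that of ACAN at E50 versus E40 passed the limit.

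Collagen genes were set beside the small leucine-rich group because its proteins bind collagen fibrils. Of 14 listed mesenchymal genes 10 had a symbol, of which 5, namely COL1A2, COL5A1, COL5A2, COL6A2 and the homeobox gene PRRX1, were lower at E50 versus E40 (median log2 fold -0.98), beside 8.14% of all genes. COL5A1, a collagen of the fibril core, read 4218 at E40, 1182 at E50 and 1882 at E60 on its brightest probe set, and was 3.57-fold lower at E50 than at E40. Its next brightest probe set read 1810, 1250 and 2343, within 2-fold in each pair of stages. COL6A3, a chain of the microfibrillar collagen VI, read 5022, 2673 and 2364. VIM, the gene of the mesenchymal filament vimentin, read 19634, 18933 and 20460.3, and THY1, a fibroblast surface protein, read 5439, 7953 and 6287. At E60 versus E50, 2 of 10 were higher (0.10), beside 4.41% of all genes. At E60 versus E40, 5 of 10 were lower (-0.85), beside 7.3% of all genes. With equal medians the lower genes were 3 at E50 versus E40 and 2 at E60 versus E40. On the brightest probe set of each, the log2 folds at E50 versus E40 were thus -0.27 for DCN, 0.01 for LUM, -1.83 for COL5A1 and -0.91 for COL6A3. The next brightest COL5A1 probe set stood at -0.53, so the distance from DCN and LUM depended on the collagen and the probe set taken.

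Mineralised matrix genes were set beside BGN because biglycan is a proteoglycan of predentin and bone. IBSP, the gene of bone sialoprotein, read 4047 at E40, 617 at E50 and 4585 at E60. SPARC, the gene of osteonectin, read 20266, 15965 and 21698. ALPL, the gene of alkaline phosphatase, read 875, 3847 and 5750, and SPP1, the gene of osteopontin, read 6186, 4539 and 5664. Of 11 listed genes 9 had a symbol. At E50 versus E40, 2 of 7 were higher (DSPP and ALPL) and 2 lower (IBSP and BGLAP), with a median log2 fold of -0.45. Over all genes 2.79% were higher and 8.14% lower. DSPP was at least 2.74-fold higher on its brightest probe set, which read 3.60 at E40, under the floor, and 80.3 at E50. Its other probe sets did not give this call. They read 1.72 and 29.8, at least 1.02-fold higher, and 18.1 and 17.9, without a fold. Under a floor at the 50th percentile 1 gene of the list was higher and 1 lower at E50 versus E40. At E60 versus E50, 3 of 8 were higher (DSPP, DMP1 and IBSP, 0.77), beside 4.41%. DMP1 read 20.6 at E40 and 3.30 at E50, both under the floor, and 49.6 at E60, at least 2.88-fold higher than at E50. Its second probe set was under the floor on every array. The DMP1 call was lost with a floor common to the arrays and with a floor at the 50th percentile, which left 2 higher genes. At E60 versus E40, 2 of 8 were higher (DSPP and ALPL) and 1 lower (BGLAP, 0.20 for the list), beside 4.49% and 7.3%. The summed signal of the 9 genes was 31603, 25141 and 42069. Whether the E60 signal of BGN comes from the same cells was not tested.

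Scaling moved the small changes and left the large ones. With arrays at equal medians the median of all probe sets stood at 0.24 at E50 versus E40, and the log2 folds in that comparison were 3.37 for HAPLN1, 0.39 for LUM, 0.25 for BGN, 0.11 for DCN and -0.62 for ACAN. Equal medians shift every gene alike, and the signs of BGN and DCN turned only there, standing at -0.23 and -0.38 after quantile normalization and at -0.19 and -0.33 with housekeeping scaling. LUM stood at -0.10 and -0.05 under these 2 scalings. The log2 fold of HAPLN1 at E50 versus E40 lay between 2.63 and 3.37 over all alternatives, and that of BGN at E60 versus E50 between 1.38 and 1.54.

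**Figure D4:**
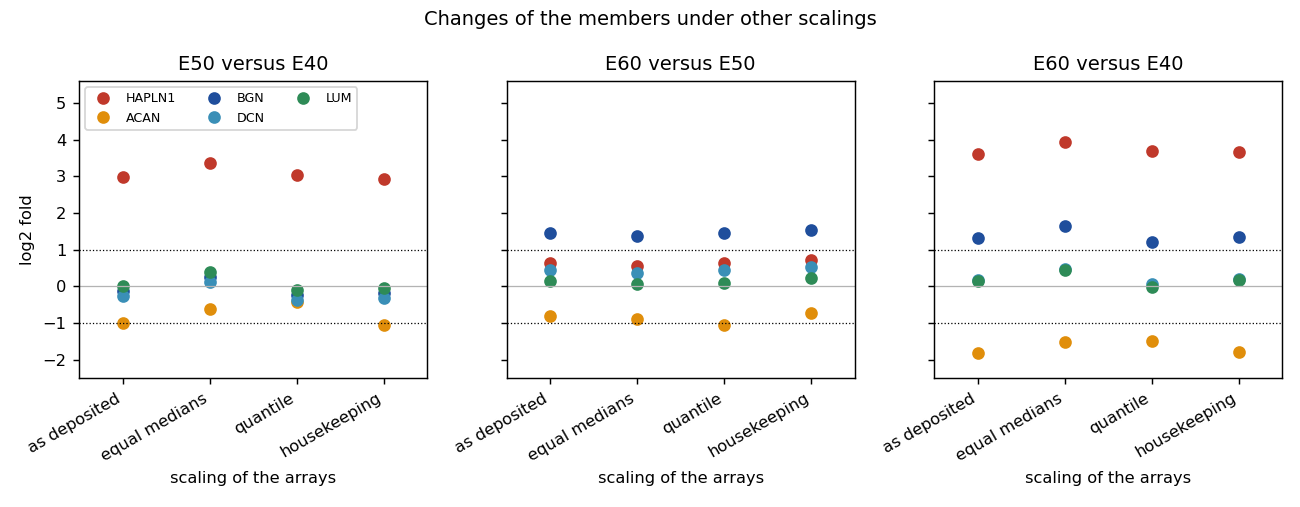
Log2 folds (vertical axis) of the 5 genes in the 3 pairs of stages with arrays as deposited, at equal medians, quantile normalized or scaled to 13 housekeeping genes (horizontal axis). Dotted lines mark 2-fold. HAPLN1 at E50 versus E40 and BGN at E60 versus E50 stay above the upper line under all 4 scalings, and ACAN at E50 versus E40 crosses the lower line.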

How the data were processed

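RNA pooled from 1 litter per stage was hybridised to 1 Affymetrix Porcine Genome Array each for E40, E50 and E60. The authors computed MAS 5.0 signals in GeneSpring and deposited log2 values for 24123 probe sets, with 0 as the lowest value. The 124 array controls were left out and no further normalization was applied. Detection calls were not used here, so a percentile floor bounds dim signals.

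Symbols came from the platform annotation (10069 analysed probe sets with 1 symbol, 198 with several, 13732 with none). Of the first, 9961 matched the RefSeq gene table by ID, which changed 0 symbols. Each gene is given by its brightest probe set on average over the arrays. Folds were computed with Python 3.11.15, numpy 2.4.6 and pandas 2.3.3, with code tested on simulated data. The members and 15 related lists (215 genes, 118 with a symbol) were chosen with earlier results of these data known. Of each list, at most the 4 brightest genes and genes past 2-fold are named, and for each member the 3 genes with the nearest folds in both steps. Alternatives changed the floor, the scaling, the fold limit or the choice of probe sets.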

Additional observations from a re-analysis of the deposited data

How the results depend on the processing

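No paired analysis was possible because each stage has 1 array, and for the same reason no replicate could be left out. A fold was taken as kept when it moved by less than 1.5-fold, and a count when it stayed within 1.5 times. Of 114 values of the 5 genes' folds under the alternatives, 61 equalled the value as reported, since many settings could not touch them, and of the other 53 values 52 were kept. The exception was ACAN at E50 versus E40, at -0.43 (log2) after quantile normalization. Of 357 medians of the related lists 329 were kept, and of 630 counts in them 528. The uncalled folds of BGN and DCN at E50 versus E40 changed sign only with equal medians, which shift all genes alike, and that of LUM after quantile normalization and housekeeping scaling. At E60 versus E40 DCN stood at -0.26 with the mean over probe sets and LUM at -0.02 after quantile normalization. Under a floor at the 50th percentile, and with the mean over probe sets, ACAN had no fold, so the number of lower members was 0 at E50 versus E40 and at E60 versus E40, and the difference between the groups could not be computed. The number of lower members at E50 versus E40 was also 0 with equal medians, with quantile normalization and at a 3-fold limit, and after quantile normalization it was 1 at E60 versus E50. At a 3-fold limit the number of higher members was 0 at E60 versus E50 and 1 at E60 versus E40. The difference between cartilage-type and small leucine-rich genes became 3.11, 0.21 and 3.46 with HAPLN1 alone and -0.88, -1.25 and -1.99 with ACAN alone at E50 versus E40, E60 versus E50 and E60 versus E40, so its sign depended on which gene was taken in all 3 pairs.

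As deposited, 477 probe sets were higher and 2862 lower at E50 versus E40, 1184 and 349 at E60 versus E50, and 840 and 2343 at E60 versus E40. In the same order of pairs, higher first, they were 1555 and 5011, 3245 and 1664, and 2172 and 4177 without a floor, and 262 and 902, 330 and 104, and 469 and 880 with a floor at the 50th percentile. They were 126 and 1453, 306 and 71, and 277 and 1009 at a 3-fold limit, and 169 and 494, 270 and 108, and 275 and 447 with 1 probe set per symbol. Equal medians gave 1455 and 1808 at E50 versus E40 and 1628 and 1467 at E60 versus E40. Quantile normalization gave 1209 and 1636 at E50 versus E40, 745 higher at E60 versus E50 and 1477 higher at E60 versus E40. The share of higher probe sets among those called at E50 versus E40 was 14.3% as deposited, 44.6% with equal medians and 42.5% after quantile normalization.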

Other observations

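Of 7 genes of heparan sulphate and other proteoglycans with a fold at E50 versus E40, GPC3, TGFBR3 and SRGN passed 2-fold on their brightest probe set in at least 1 pair of stages. SDC1, the gene of syndecan-1 of epithelial and condensing mesenchymal cells, read 2054 at E40, 2816 at E50 and 2404 at E60, and SDC2 read 1898, 1773 and 1974. A dim SDC1 probe set read 39.6, 16.4 and 7.27 and was at least 2.30-fold lower at E50 than at E40, while its other probe sets were within 2-fold. SRGN, the gene of serglycin, a proteoglycan of blood cell granules, read 68.9, 65.9 and 157 and was 2.39-fold higher at E60 than at E50. GPC3, a glypican, was at least 4.31-fold lower at E50 than at E40 (10.6 at E50, under the floor, and 74.3 at E40) and at least 3.43-fold higher at E60 (59.2) than at E50. TGFBR3, the gene of betaglycan, was at least 3.54-fold lower at E50 than at E40. Of 20 listed genes 8 had a symbol. At E50 versus E40, 2 of 7 with a fold were lower (median log2 fold -0.18), beside 8.14% of all genes. At E60 versus E50, 2 of 6 were higher (0.49), beside 4.41%. At E60 versus E40, 1 of 7 was higher and 1 lower (0.06), beside 4.49% and 7.3%. With a floor at the 50th percentile no gene of this list was called in any pair of stages.

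The inter-alpha-trypsin inhibitor family includes heavy chains that are transferred to hyaluronan and the light chain bikunin, made from AMBP. ITIH4 read 44.1 at E40, 11.4 at E50 and 55.0 at E60, and was at least 2.56-fold lower at E50 than at E40 and at least 3.19-fold higher at E60 than at E50. With a floor common to the arrays or at the 50th percentile neither call of ITIH4 was kept, and the first was also lost with equal medians and after quantile normalization. AMBP read 5.66 at E40, under the floor, 145 at E50 and 203 at E60, and was at least 4.94-fold higher at E50 than at E40. This call was lost with a floor at the 50th percentile.

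The remaining marker lists, counted for the composition of the pools, were lower at E50 in part. At E50 versus E40, 3 of 6 endothelial genes with a fold were lower (median log2 fold -1.04), a count of 1 with equal medians, after quantile normalization or with a floor at the 50th percentile, 1 of 3 macrophage genes was lower (-0.88), and none of 13 housekeeping genes was called (0.02). Of 5 genes of keratinised epithelium with a fold 4 were lower (-4.03), and of 4 enamel genes 3 were higher and 1 was lower (3.74). Over all genes in this comparison 2.79% were higher and 8.14% lower.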
